A study of Homo sapiens with 96 samples.

Results

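The splicing of 8 genes for heterogeneous nuclear ribonucleoproteins (hnRNPs), HNRNPA1, HNRNPA2B1, HNRNPA3, HNRNPAB, HNRNPC, HNRNPD, HNRNPK, and HNRNPR, is described here in A549, an established cell line derived from adenocarcinoma of the human lung. Every alternative splicing event that carried one of these gene names in the 8 deposited tables was taken, which gave 267 events of the 239131 in the series. Poly(A)-RNA seq was available for 10 groups of 3 libraries. Cells received 1 µM GSK591, an inhibitor of PRMT5, or 1 µM MS023, an inhibitor of the Type I protein arginine methyltransferases, for 2, 4, or 7 days. Co-treatment combined both inhibitors, each at 1 µM, over 2 or 4 days. Controls were kept in 0.01% DMSO for 4 or 7 days. The 2-day and 4-day inhibitor groups were both set against DMSO at 4 days, so at 2 days the treatment and the day cannot be told apart. The 7-day tables do not name their control, which was taken to be DMSO at 7 days because the labels give no other control of that day. All groups are one cell line, and nothing in the labels states whether the 3 libraries came from separate cultures. The p-values thus rest only on spread between libraries, which may be technical. For each event that spread was pulled toward, or replaced by, a spread pooled over events of its type.

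The hnRNPs are abundant nuclear RNA-binding proteins that coat nascent transcripts and bind near splice sites, where many of them repress or promote the use of exons. Several members carry glycine- and arginine-rich stretches that are methylated by protein arginine methyltransferases, Type I enzymes making asymmetric and PRMT5 making symmetric dimethylarginine. Many hnRNP genes produce several protein forms through a cassette exon or a shifted splice site, and some also produce transcripts that are degraded.

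Each event other than MXE sets a long form, which holds the alternative segment, against a short form that skips it. In mutually exclusive exons (MXE) each form holds a different exon of the pair. There the form with the exon nearer the 5′ end takes the place of the long form, whatever its length. Ψ is the share of the long form after each read count is divided by the effective length of its form, and ΔΨ is Ψ with inhibitor minus Ψ with DMSO. The events comprised 156 skipped exons (SE), 92 pairs of mutually exclusive exons (MXE), 9 shifted 3′ splice sites (A3SS), 6 shifted 5′ splice sites (A5SS), and 4 retained introns (RI). An event was called where a quasi-binomial test across libraries gave an adjusted p under 0.05, with adjustment over all events of the same type in the comparison. Reads on all events ranged from 72359972 to 107061919 per library, and libraries of 1 group differed by 1.77 to 2.71 times the sampling variance. Of the epithelial markers EPCAM, KRT7, KRT8, KRT18, KRT19, and CDH1, all but KRT19 had reads on events in DMSO at 4 days. Of the markers of other cells PTPRC, CD3E, and PECAM1 had no event, and CD79A, COL1A1, and COL3A1 had 75, 272, and 17 reads over the 3 DMSO libraries.

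Some of the segments described below are printed from GRCh37 (hg19), read 5′ to 3′ on the strand of the gene, with the alternative segment in capitals and adjoining bases in lower case. The HNRNPA2B1 136-nt exon, the HNRNPC 272-nt form, and the HNRNPR 166-nt exon, also called in most inhibitor comparisons, are not printed. The first set adds or removes codons inside coding sequence. HNRNPA2B1 36 nt is the exon that separates the B1 from the A2 form of the protein (chr7:26237451-26237486, minus strand). HNRNPC 39 nt extends exon 4 at its 5′ splice site (chr14:21699117-21699155, minus) and separates the C2 from the C1 form. HNRNPD 57 nt is exon 2 of 9 (chr4:83292681-83292737, minus).
HNRNPA2B1 36 nt: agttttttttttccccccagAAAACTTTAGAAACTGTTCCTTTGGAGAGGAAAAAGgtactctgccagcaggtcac
HNRNPC 39 nt: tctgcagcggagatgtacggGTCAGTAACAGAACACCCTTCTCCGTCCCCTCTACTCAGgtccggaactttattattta
HNRNPD 57 nt: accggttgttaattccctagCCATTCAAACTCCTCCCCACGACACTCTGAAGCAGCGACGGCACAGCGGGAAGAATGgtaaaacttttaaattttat

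The next set holds exons of HNRNPA3 and HNRNPD near the 3′ end of coding sequence, shown together because they encode glycine- or tyrosine-rich stretches. HNRNPA3 141 nt is exon 8 of 11 (chr2:178082433-178082573, plus). HNRNPD 147 nt is exon 7 of 9 (chr4:83277690-83277836, minus).
HNRNPA3 141 nt: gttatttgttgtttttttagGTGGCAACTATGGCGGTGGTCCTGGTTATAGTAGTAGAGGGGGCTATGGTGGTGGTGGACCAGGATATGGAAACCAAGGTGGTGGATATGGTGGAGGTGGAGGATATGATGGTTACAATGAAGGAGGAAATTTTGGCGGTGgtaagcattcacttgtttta
HNRNPD 147 nt: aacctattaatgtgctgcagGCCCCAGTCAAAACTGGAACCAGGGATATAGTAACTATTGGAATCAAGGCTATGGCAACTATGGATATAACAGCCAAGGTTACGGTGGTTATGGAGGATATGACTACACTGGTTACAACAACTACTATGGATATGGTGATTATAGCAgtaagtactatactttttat

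The last set comes from HNRNPC, HNRNPK, and HNRNPR. HNRNPC 26 nt is exon 2 of 9, which lies before the coding sequence (chr14:21731470-21731495, minus). HNRNPK 60 nt is the 5′ part of the last exon and spans the stop codon (chr9:86584296-86584355, minus), so the short form ends in another stretch of codons. HNRNPK 72 nt is exon 8 of 17 (chr9:86588817-86588888, minus) and HNRNPR 114 nt is exon 5 of 11 (chr1:23660011-23660124, minus), both coding.
HNRNPC 26 nt: agTGAGATTTTTTTGATCTTCAGCTACAgt
HNRNPK 60 nt: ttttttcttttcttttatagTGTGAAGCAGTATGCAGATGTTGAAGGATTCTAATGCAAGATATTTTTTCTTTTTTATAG
HNRNPK 72 nt: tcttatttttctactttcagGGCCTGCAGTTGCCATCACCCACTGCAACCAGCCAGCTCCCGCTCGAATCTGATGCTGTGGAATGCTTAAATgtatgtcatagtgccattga
HNRNPR 114 nt: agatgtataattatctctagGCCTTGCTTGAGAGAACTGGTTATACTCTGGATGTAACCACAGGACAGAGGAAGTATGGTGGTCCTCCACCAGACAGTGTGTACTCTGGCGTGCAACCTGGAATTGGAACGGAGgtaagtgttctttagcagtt

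The 267 events fall on 169 distinct segments, 257 events passed the minimum of 10 reads in every library in at least 1 of the 8 inhibitor comparisons, and 79 events on 68 segments were called in at least 1. Splicing of these genes differed from DMSO in all 8 inhibitor comparisons. At 2 days GSK591 gave 21 calls in 139 tested events, where 7.02% of all events were called, MS023 gave 14 in 140 (all events, 3.16%), and co-treatment gave 43 in 179 (13.4%). At 4 days GSK591 gave 37 calls in 151 tested events (11.2%), MS023 gave 17 in 143 (3.75%), and co-treatment gave 43 in 170 (14.7%). At 7 days GSK591 gave 30 in 144 (8.93%) and MS023 gave 25 in 147 (4.75%). The events of these genes were deeply read, with a median of 2840 to 3340 reads per library against 184 to 239 for all tested events, and the part of this depth in the share of calls was not tested. The counts rest on the test. limma on log2 odds, which weights no library by its reads, called 0 hnRNP events in 5 of the comparisons and 8, 4, and 7 in co-treatment at 2 days, GSK591 at 4 days, and co-treatment at 4 days. Of all events limma called 4.15%, 2.5%, and 5.77% there, and the hnRNP counts, of 179, 151, and 170 tested, were near or below these shares. Where it called 0 hnRNP events, it called between 0.021% and 0.987% of all events. Leaving out any 1 library left between 0 and 13 calls, and between 10 and 34 when the prior came only from events with reads of both forms. The prior is the spread over all events toward which the spread of each event is pulled, and reads of both forms means at least 20 summed reads of the rarer form. A trended prior lets that spread vary with the count of the rarer form. Both were chosen after these results were seen. For SE events with all libraries, the pull of the main prior was strong in the comparisons with DMSO and complete at 7 days. With the prior from events with reads of both forms it was complete or nearly so in every fit. Small p-values of SE events there rest mainly on a spread shared by SE events, not on that of the exon itself.

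**Figure D1:**
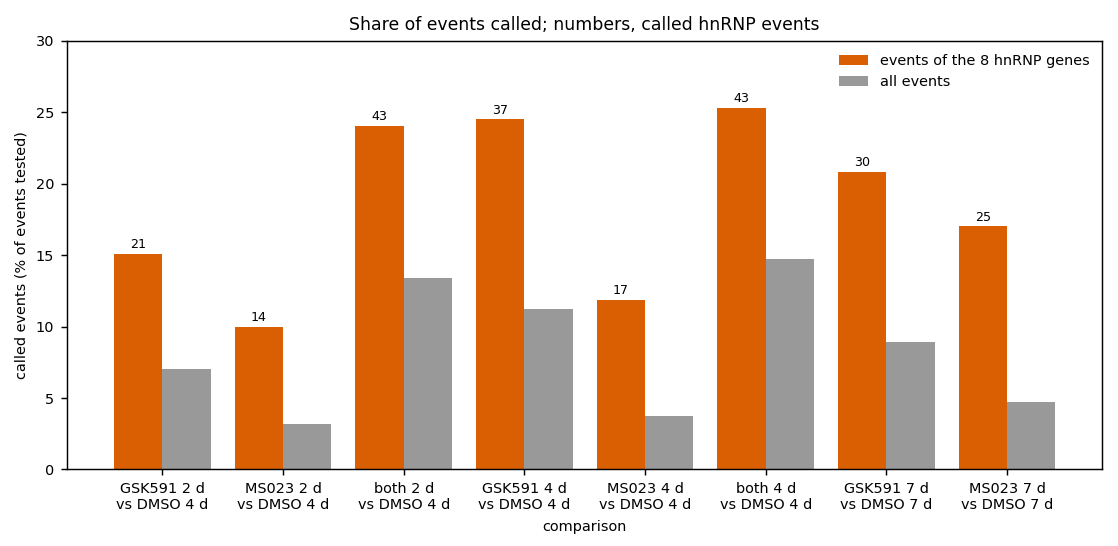
Share of tested events called in each inhibitor comparison (y axis, percent) for the 8 hnRNP genes (orange) and for all events (grey), with the number of called hnRNP events above each orange bar. The orange bar was the higher one in all 8 comparisons, with the highest count of 43 in both co-treatment comparisons.

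More called events had a lower than a higher Ψ in each inhibitor comparison with all event types counted, and without MXE events in each but MS023 at 7 days. With GSK591 at 2 days 8 were higher and 13 lower, where 2.45% and 4.57% of all events were called in those directions. With MS023 at 2 days 5 were higher and 9 lower (all events, 0.936% and 2.23%), and with co-treatment 13 and 30 (4.12% and 9.25%). At 4 days GSK591 gave 16 higher and 21 lower (4.59% and 6.65%), MS023 gave 7 and 10 (1.31% and 2.44%), and co-treatment gave 10 and 33 (5.76% and 8.93%). At 7 days GSK591 gave 11 and 19 (4.24% and 4.69%) and MS023 gave 10 and 15 (2.02% and 2.73%). All 8 MXE calls with MS023 at 7 days were lower, and the other types held 10 higher and 7 lower. A lower Ψ of an MXE event is a shift to the exon nearer the 3′ end, not skipping. Many called changes were small, since only 8 to 19 of the called events per comparison had an absolute ΔΨ of 0.05 or more.

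Of all events tested in at least 1 of the 8 comparisons, 16.6% were called in at least 1. HNRNPC held the most called events, 31 of its 69 tested, and HNRNPA2B1 and HNRNPK followed with 10 of 32 and 10 of 23. HNRNPA1 and HNRNPR had 8 each of 39 and 34, HNRNPA3 had 6 of 17, HNRNPD had 4 of 22, and HNRNPAB had 2 of 21. Events of 1 gene share exons and reads, so these counts do not stand for separate changes. HNRNPA1 and other members also have processed pseudogenes, and reads on them could not be separated from those of the genes here.

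HNRNPA2B1, which encodes the A2 and B1 proteins of the core hnRNP particle, showed opposite changes with the 2 inhibitors. Its 136-nt exon lies after the coding sequence, inside the last exon of the MANE transcript (chr7:26230613-26230748, minus), and all 9 annotated transcripts that use it with exactly these ends are marked as targets of nonsense-mediated decay. Both forms of this event splice out part of that last exon, so Ψ is a share of such transcripts and not of all HNRNPA2B1 transcripts. The event had 908 to 1058 reads per library in DMSO at 4 days, against 13267 to 14502 for the 81-nt exon of the gene. In DMSO at 4 days Ψ was 0.362, 0.413, and 0.357 in the 3 libraries. With GSK591 it was 0.189, 0.174, and 0.167 at 2 days and 0.188, 0.196, and 0.217 at 4 days. All 6 GSK591 libraries were thus below all DMSO libraries, with ΔΨ of -0.201 (adjusted p = 2.28e-14) and -0.177 (adjusted p = 1.48e-13). With MS023 Ψ was 0.489, 0.558, and 0.573 at 2 days and 0.593, 0.554, and 0.572 at 4 days. All 6 were above DMSO, with ΔΨ of 0.162 (adjusted p = 2.76e-16) and 0.195 (adjusted p = 1.14e-16). Co-treatment gave 0.264, 0.269, and 0.261 at 2 days and 0.321, 0.252, and 0.251 at 4 days, below DMSO and above GSK591 alone in every library. Its ΔΨ was -0.113 and -0.103, both called. The difference between co-treatment and GSK591, 0.0879 at 2 days and 0.0742 at 4 days, was not called (adjusted p = 0.185 and 0.387).

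At 7 days the 136-nt exon had Ψ of 0.259, 0.292, and 0.336 in DMSO, 0.240, 0.272, and 0.238 with GSK591, and 0.523, 0.501, and 0.491 with MS023. The MS023 libraries lay above all DMSO libraries, with ΔΨ of 0.209. The GSK591 and DMSO libraries overlapped, and ΔΨ was -0.046 (adjusted p = 0.00175), a call lost with the trended prior (adjusted p = 0.111). This value was -0.0257 without DMSO library c and -0.0643 without DMSO library a. The GSK591 effect differed between 7 and 4 days by 0.131 in the interaction test (adjusted p = 0.000257). Part of that difference was in the controls, whose mean Ψ was 0.378 ± 0.0308 at 4 days and 0.296 ± 0.0387 at 7 days (SD, n = 3), while GSK591 gave 0.200 ± 0.0147 and 0.250 ± 0.0189. GSK591 and MS023 tested directly against each other differed by -0.363 at 2 days, -0.373 at 4 days, and -0.255 at 7 days, all called (adjusted p = 0.0249, 0.0118, and 0.0319).

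The 36-nt exon of HNRNPA2B1, which adds residues near the amino terminus of the B1 protein, rose mainly with MS023. Of the 12 annotated transcripts with exactly this exon, 9 are marked as targets of nonsense-mediated decay. Only 2 protein-coding transcripts hold it in their coding sequence, so its Ψ is not a share of the B1 protein. Ψ was 0.236, 0.239, and 0.222 in DMSO at 4 days, 0.378, 0.364, and 0.368 with MS023 at 2 days, and 0.384, 0.402, and 0.385 at 4 days. ΔΨ was 0.138 and 0.158, with no overlap between groups. With GSK591 Ψ was 0.268, 0.244, and 0.246 at 2 days and 0.223, 0.250, and 0.239 at 4 days, and the 4-day libraries overlapped DMSO. ΔΨ with GSK591 was 0.0199 at 2 days (adjusted p = 0.00453) and 0.0049 at 4 days (not called, adjusted p = 0.449). Co-treatment gave ΔΨ of 0.0414 at 2 days, which was called, and -0.00264 at 4 days, which was not (adjusted p = 0.734). At 7 days Ψ was 0.215, 0.229, and 0.239 in DMSO, 0.322, 0.307, and 0.333 with GSK591, and 0.427, 0.416, and 0.399 with MS023. Both inhibitors lay above all DMSO libraries, with ΔΨ of 0.0927 and 0.186. The GSK591 effect was larger at 7 than at 4 days by 0.0878 (interaction, adjusted p = 3.33e-08). GSK591 minus MS023 was -0.118 at 2 days and -0.153 at 4 days, both called. The difference of -0.0936 at 7 days was not called (adjusted p = 0.0635), but with the prior from events with reads of both forms its adjusted p was 8.08e-42. That value rests on a single spread shared by SE events and not on the spread of this exon.

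The other named exons of HNRNPA2B1, of 81 and 147 nt, were included in nearly all transcripts. Mean Ψ was 0.999 or above in every group that lists them, and the 3 calls for each had ΔΨ between -0.00138 and -0.000414. When 1 library was left out and the prior came from events with reads of both forms, at most 1 of 6 fits kept each 81-nt call.

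**Figure D2:**
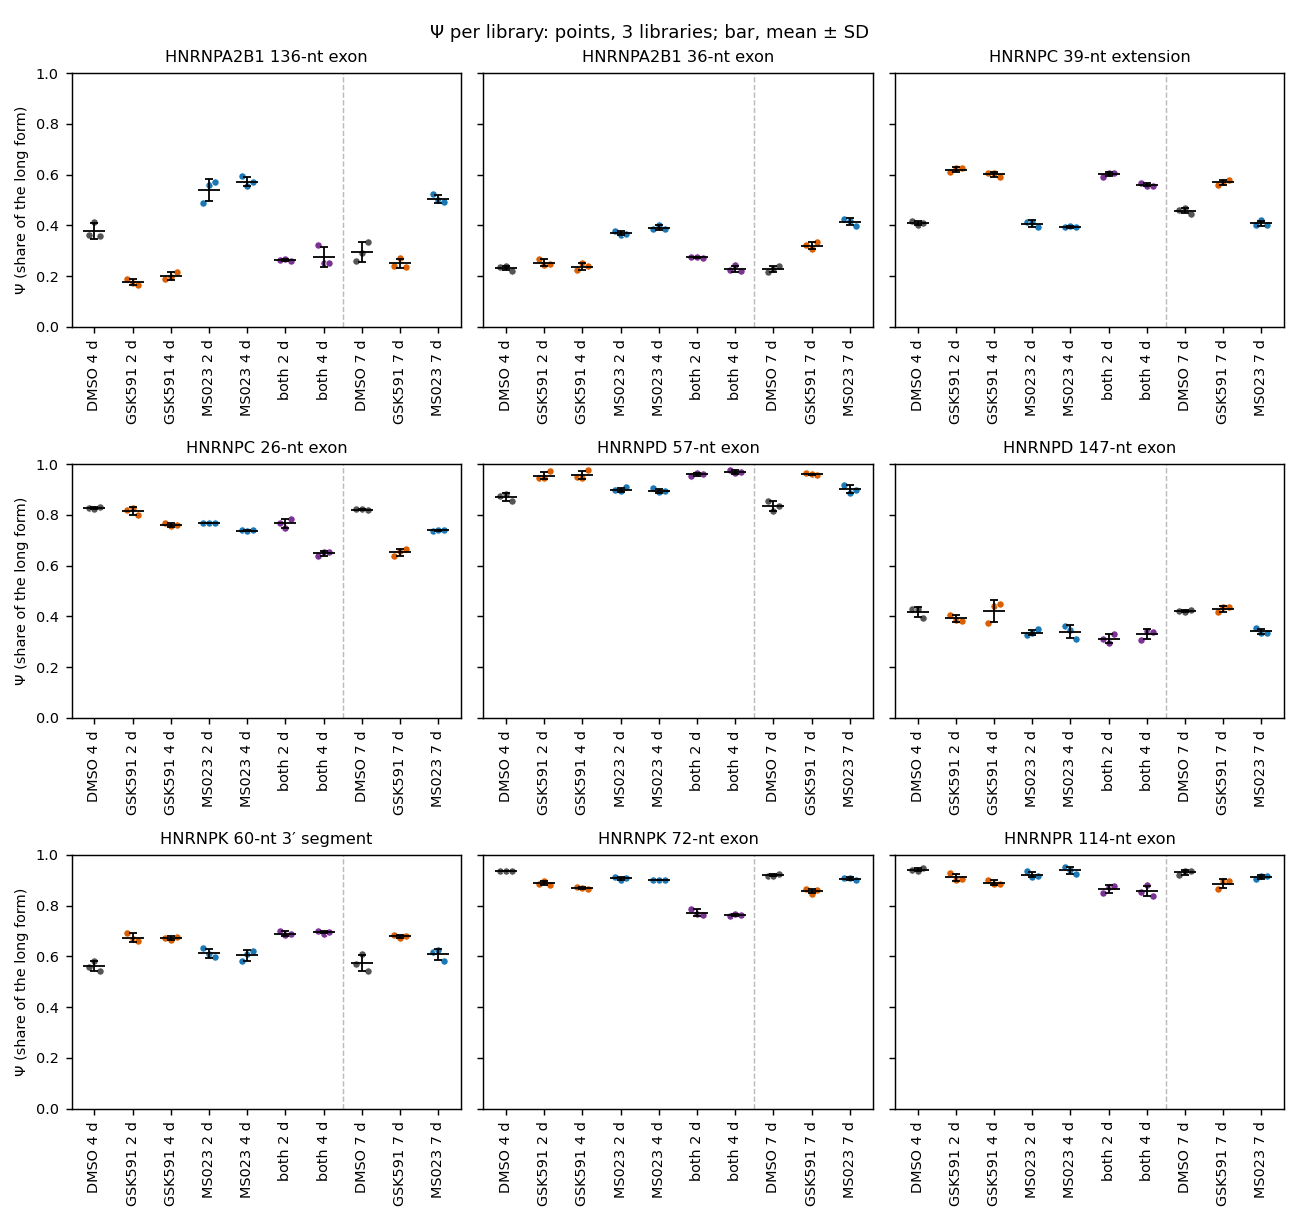
Ψ (y axis, share of the long form, 0 to 1) of 9 segments in each of the 3 libraries (points) of the 10 groups, with the mean and SD as black bars and the 7-day groups right of the dashed line. DMSO is grey, GSK591 orange, MS023 blue, and co-treatment ("both") purple. The HNRNPA2B1 136-nt exon fell below DMSO with GSK591 and rose above it with MS023 at 2 and 4 days, and the HNRNPC 39-nt extension rose with GSK591 and with co-treatment.

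HNRNPC encodes the C1 and C2 proteins, which form tetramers that package nascent RNA and bind uridine tracts. The 39-nt extension of exon 4, found in C2, rose with GSK591 and with co-treatment. In DMSO at 4 days Ψ was 0.419, 0.402, and 0.411. With GSK591 it was 0.610, 0.625, and 0.626 at 2 days and 0.607, 0.606, and 0.590 at 4 days. Co-treatment gave 0.592, 0.607, and 0.608 at 2 days and 0.567, 0.557, and 0.556 at 4 days. These 12 libraries were all above DMSO, and ΔΨ was 0.210 and 0.191 with GSK591 and 0.192 and 0.149 with co-treatment (adjusted p between 9.42e-20 and 1.27e-15). With MS023 the libraries overlapped DMSO at 2 days, at 0.415, 0.414, and 0.393, and lay at 0.392, 0.397, and 0.392 at 4 days, below its lowest library of 0.402. Neither difference was called (ΔΨ of -0.00323 and -0.0169, adjusted p = 0.881 and 0.168).

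At 7 days the 39-nt extension had Ψ of 0.461, 0.468, and 0.446 in DMSO, 0.559, 0.571, and 0.578 with GSK591, and 0.402, 0.420, and 0.403 with MS023. The 3 groups did not overlap. ΔΨ was 0.111 with GSK591 and -0.0501 with MS023 (adjusted p = 7.49e-22 and 4.96e-06). The GSK591 effect was smaller at 7 than at 4 days, with an interaction value of -0.0794 (adjusted p = 4.16e-07). The DMSO mean itself moved from 0.411 ± 0.00808 to 0.458 ± 0.0111. GSK591 exceeded MS023 by 0.213, 0.207, and 0.161 at 2, 4, and 7 days, all called (adjusted p = 0.0016, 0.000556, and 0.00255).

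The 26-nt exon of HNRNPC in the untranslated 5′ end fell with both inhibitors. Its Ψ was 0.828, 0.822, and 0.829 in DMSO at 4 days and 0.822, 0.823, and 0.818 at 7 days. MS023 gave 0.768 in all 3 libraries at 2 days and 0.740, 0.735, and 0.739 at 4 days, with ΔΨ of -0.0581 and -0.0881. With GSK591 Ψ was 0.819, 0.828, and 0.799 at 2 days, 0.767, 0.754, and 0.758 at 4 days, and 0.636, 0.656, and 0.664 at 7 days. The 2-day GSK591 libraries overlapped DMSO (ΔΨ of -0.0108, adjusted p = 0.344), and the later ones did not, at ΔΨ of -0.0665 and -0.169. The GSK591 effect at 7 days exceeded that at 4 days, with an interaction value of -0.102 (adjusted p = 6.41e-08). Co-treatment gave ΔΨ of -0.0597 at 2 days and -0.178 at 4 days, and MS023 at 7 days gave -0.0826, all called. At 7 days GSK591 was lower than MS023, with a difference of -0.0862 (adjusted p = 0.045). At 2 and 4 days the order was reversed, with every GSK591 library above every MS023 library, and these differences were not called.

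A 272-nt form of the same HNRNPC exon, which shares its 3′ end and its reads and begins upstream (chr14:21731470-21731741, minus), moved the same way. Its mean Ψ was 0.275 ± 0.0111 in DMSO at 4 days, and on that day 0.141 ± 0.00421 in co-treated, 0.216 ± 0.00775 in GSK591-treated, and 0.198 ± 0.00874 in MS023-treated cells (SD, n = 3). It was called in 7 of 8 comparisons, all but GSK591 at 2 days, and the interaction value for GSK591 was -0.0527 (adjusted p = 0.00148). The coding 48-nt exon 5 was constitutive, with a mean Ψ of at least 0.999 in every group, and was called in 0 of 8 comparisons. The retained 99-nt intron 8 of HNRNPC was called as lower in 4 of 8 comparisons, with a median absolute ΔΨ of 0.0127. These were GSK591 at 2, 4, and 7 days and co-treatment at 4 days. Of all RI events 2.38%, 4.32%, 6.1%, and 6.1% were called lower there, and 24%, 33.9%, 21.8%, and 33.6% higher.

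**Figure D3:**
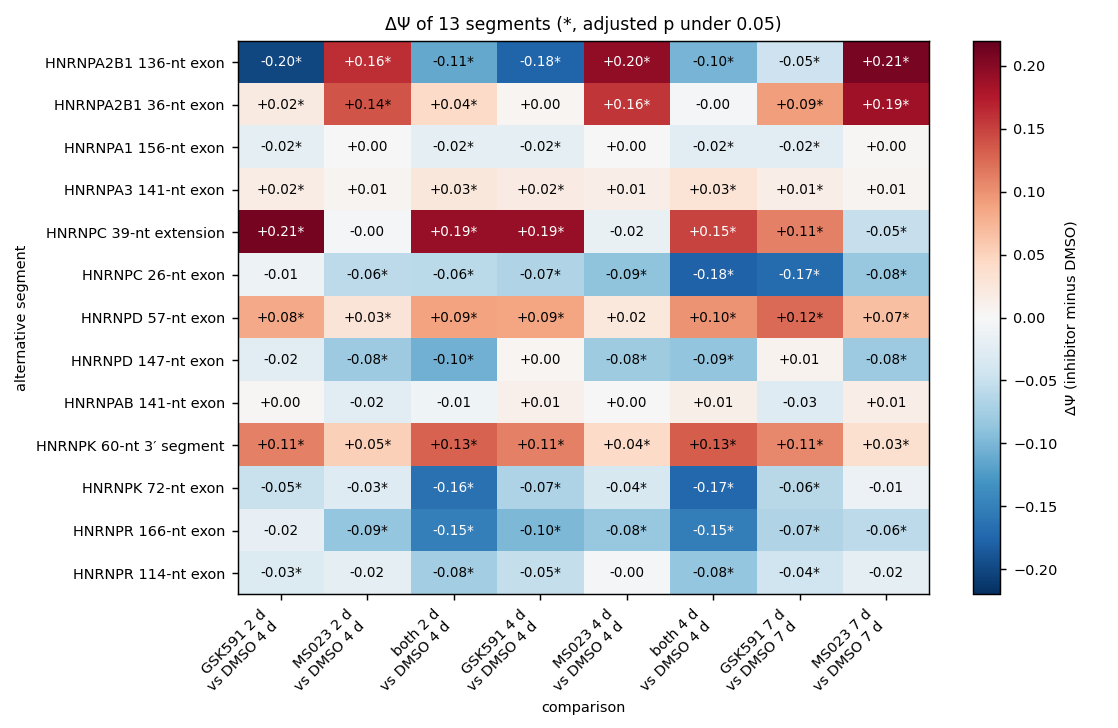
ΔΨ (inhibitor minus DMSO, colour scale and printed value) of 13 segments (y axis) in the 8 inhibitor comparisons (x axis), with asterisks where the adjusted p was under 0.05. The HNRNPK 60-nt segment and the HNRNPA2B1 136-nt exon carried an asterisk in all 8 comparisons and the HNRNPAB exon in none.

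HNRNPD encodes AUF1, which binds AU-rich elements and is made in forms set by the 57-nt exon 2 and the 147-nt exon 7. The 57-nt exon rose with GSK591 and with co-treatment. Ψ was 0.873, 0.884, and 0.855 in DMSO at 4 days, 0.946, 0.947, and 0.971 with GSK591 at 2 days, and 0.949, 0.947, and 0.975 at 4 days. Co-treatment gave 0.955, 0.965, and 0.960 at 2 days and 0.977, 0.963, and 0.967 at 4 days. All 12 libraries lay above DMSO, with ΔΨ from 0.0839 to 0.0981 (adjusted p between 2.09e-13 and 4.17e-10). MS023 gave smaller ΔΨ of 0.0281 at 2 days (adjusted p = 0.0188, and 0.145 with the prior from events with reads of both forms) and 0.024 at 4 days (not called, adjusted p = 0.0617). At 7 days ΔΨ was 0.124 with GSK591 and 0.0658 with MS023, both called, over a DMSO mean of 0.835 ± 0.0192. Direct differences between GSK591 and MS023, 0.0559, 0.0622, and 0.0583 at 2, 4, and 7 days, were not called (adjusted p = 0.123, 0.0819, and 0.103).

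The 147-nt exon of HNRNPD fell with MS023 and with co-treatment, and no call was made with GSK591. Ψ was 0.427, 0.427, and 0.395 in DMSO at 4 days, 0.326, 0.334, and 0.348 with MS023 at 2 days, and 0.360, 0.346, and 0.311 at 4 days. Co-treatment gave 0.309, 0.294, and 0.331 at 2 days and 0.308, 0.342, and 0.339 at 4 days. These libraries all lay below DMSO, with ΔΨ of -0.0805 and -0.0775 for MS023 and of -0.105 and -0.0866 for co-treatment. With GSK591 at 4 days Ψ was 0.372, 0.440, and 0.450, which overlapped DMSO (ΔΨ of 0.00431, adjusted p = 0.768), and ΔΨ at 2 days was -0.0241 (adjusted p = 0.187). At 7 days Ψ was 0.419, 0.418, and 0.426 in DMSO, 0.352, 0.334, and 0.336 with MS023, and 0.417, 0.435, and 0.436 with GSK591. ΔΨ was -0.080 with MS023 (adjusted p = 2.58e-24) and 0.00837 with GSK591 (adjusted p = 0.537), and the direct difference of 0.0884 was called (adjusted p = 0.0476). At 2 and 4 days mean Ψ was also higher with GSK591 than with MS023, but the direct differences were not called. The MXE event that pairs this exon with a 98-nt exon, and shares its reads, was also called in the same 5 comparisons, with ΔΨ from -0.0541 to -0.0394.

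The matching exon of the paralog HNRNPAB (141 nt, chr5:177637133-177637273, plus), 67.4% identical to the HNRNPD exon over 135 aligned bases, was called in 0 of 8 comparisons. HNRNPAB encodes a protein first described as a binder of CArG boxes and AU-rich RNA. Mean Ψ of the exon was 0.772 ± 0.00173 in DMSO at 4 days and between 0.749 and 0.785 in the 6 inhibitor groups of 2 and 4 days. At 7 days it was 0.705 ± 0.00103 in DMSO, 0.677 ± 0.0433 with GSK591, and 0.720 ± 0.00879 with MS023. The only calls in this gene were 2 MXE events, a 118/141-nt pair with co-treatment at 2 days (ΔΨ of 0.027, adjusted p = 0.0486, and 0.0601 with the prior from events with reads of both forms) and a 232/169-nt pair with GSK591 at 4 days (ΔΨ of 0.0348, adjusted p = 0.0437).

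HNRNPK encodes a poly(C)-binding protein with KH domains. The 60-nt segment at the start of its last exon rose in all 8 inhibitor comparisons. Ψ was 0.560, 0.581, and 0.544 in DMSO at 4 days, 0.693, 0.667, and 0.659 with GSK591 at 2 days, and 0.674, 0.665, and 0.678 at 4 days. Co-treatment gave 0.699, 0.683, and 0.689 at 2 days and 0.700, 0.690, and 0.698 at 4 days. ΔΨ was 0.111 on both days with GSK591, and 0.129 and 0.134 with co-treatment, with no overlap with DMSO. MS023 gave 0.632, 0.610, and 0.597 at 2 days and 0.581, 0.608, and 0.622 at 4 days, with ΔΨ of 0.0516 and 0.0425 (adjusted p = 1.63e-05 and 0.00658). The lowest 4-day MS023 library equalled the highest DMSO library to 3 decimals. At 7 days DMSO libraries spread from 0.544 to 0.609, GSK591 gave 0.686, 0.673, and 0.680, and MS023 gave 0.618, 0.625, and 0.583. ΔΨ was 0.106 (adjusted p = 2.89e-11) and 0.0344 (adjusted p = 0.045), and the MS023 libraries overlapped DMSO. The MS023 value was 0.0194 without DMSO library c and 0.0517 without DMSO library b, and its call was lost with the trended prior (adjusted p = 0.141).

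The coding 72-nt exon of HNRNPK fell with each inhibitor and had its lowest Ψ with both together. Ψ was 0.936, 0.937, and 0.938 in DMSO at 4 days, 0.873, 0.869, and 0.866 after GSK591, 0.901, 0.900, and 0.903 after MS023, and 0.758, 0.769, and 0.764 with co-treatment on that day. The 4 groups did not overlap, and ΔΨ was -0.0672, -0.0354, and -0.173, all called. The 2-day values of ΔΨ, -0.164 after co-treatment, -0.0485 after GSK591, and -0.0276 after MS023, were called as well. Co-treatment was lower than GSK591 alone at 4 days, with a difference of -0.106 (adjusted p = 0.0444). The difference of -0.115 at 2 days was not called (adjusted p = 0.0928). Whether co-treatment departs from the sum of both inhibitors was not tested. At 7 days ΔΨ was -0.0609 with GSK591 (called) and -0.0123 with MS023 (not called, adjusted p = 0.0933). The 129-nt exon 10 of HNRNPK had a mean Ψ of at least 0.999 in each group that lists it and 1 call, with ΔΨ of -0.000802 in co-treatment at 4 days. An MXE pair of 80 and 85 nt before the coding sequence was called with GSK591 and with co-treatment at 4 days (ΔΨ of 0.0554 and 0.0378).

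HNRNPR encodes an mRNA-binding protein closely related to SYNCRIP. Its exon 2 of 166 nt (chr1:23667345-23667510, minus) and a 169-nt form with 3 more bases share reads, and each was called as lower in 7 of 8 comparisons, all but GSK591 at 2 days. Ψ of the 166-nt exon was 0.375, 0.414, and 0.390 in DMSO at 4 days, 0.261, 0.283, and 0.338 after GSK591, 0.318, 0.268, and 0.341 after MS023, and 0.259, 0.195, and 0.268 with co-treatment on that day. All 9 libraries lay below DMSO, with ΔΨ of -0.0991, -0.0842, and -0.152 (adjusted p between 2.41e-09 and 1.22e-05). At 7 days Ψ was 0.260, 0.261, and 0.264 in DMSO, 0.186, 0.215, and 0.184 with GSK591, and 0.210, 0.191, and 0.214 with MS023, and ΔΨ was -0.0668 and -0.0569. The controls themselves differed by -0.131 between 7 and 4 days, which is within the range of the inhibitor effects. That difference was not called (adjusted p = 0.727), but with the prior from events with reads of both forms its adjusted p was 4.82e-17. The latter value rests almost wholly on a single spread shared by SE events. With no DMSO group at 2 days, a day effect on the 2-day values of this exon was not tested.

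The 114-nt exon 5 of HNRNPR fell with GSK591 and with co-treatment. Ψ was 0.942, 0.937, and 0.948 in DMSO at 4 days, 0.901, 0.885, and 0.884 with GSK591, and 0.855, 0.880, and 0.838 with co-treatment on that day, with no overlap and ΔΨ of -0.0526 and -0.0849. MS023 at 4 days gave 0.952, 0.942, and 0.925, around the DMSO values (ΔΨ of -0.0027, adjusted p = 0.801). GSK591 gave ΔΨ of -0.0294 at 2 days and -0.0445 at 7 days, and co-treatment gave -0.0758 at 2 days, all called. The 2-day call with GSK591 was lost with the prior from events with reads of both forms (adjusted p = 0.0585). With MS023 it was -0.0198 at 2 days and -0.019 at 7 days, not called (adjusted p = 0.118 and 0.185). The 177-nt exon 6 had a mean Ψ between 0.953 and 0.975 and 1 call, with co-treatment at 2 days (ΔΨ of -0.0169, adjusted p = 0.0399, and 0.161 with the same other prior).

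HNRNPA1 encodes the most studied of the A/B proteins, a repressor of exons through exonic silencers. Its 156-nt exon 8, which marks the longer A1-B protein, was rarely included. Ψ was 0.0598, 0.0553, and 0.0572 in DMSO at 4 days, 0.0365, 0.0377, and 0.0374 with GSK591, and 0.0309, 0.0359, and 0.0328 with co-treatment on that day. These libraries lay below DMSO, and ΔΨ was -0.0202 and -0.0242 (adjusted p = 3.26e-12 and 3.32e-14). MS023 gave 0.0592, 0.0543, and 0.0589, around DMSO (ΔΨ of 4.52e-05, adjusted p = 0.987). The 2-day ΔΨ was -0.0209 after GSK591, -0.0221 after co-treatment, and 0.000276 after MS023. At 7 days GSK591 gave -0.0232 and MS023 gave 0.00255. The calls were the 5 with GSK591 or co-treatment. GSK591 against MS023 was called at 4 days (a difference of -0.0203, adjusted p = 0.0207) and not at 2 or 7 days (-0.0212 and -0.0257, adjusted p = 0.0561 and 0.0853). The retained 292-nt intron 2 of HNRNPA1 had a group mean Ψ between 0.00438 and 0.0109, with single libraries from 0.00381 to 0.013. It was called 3 times, at ΔΨ of 0.00441 and 0.00239 with GSK591 at 4 and 7 days and of -0.00209 with MS023 at 4 days. A 556-nt segment that spans exons 2 and 3 and this intron kept a mean Ψ of at least 0.997 and was called 3 times. Its long form also counts reads on exons 2 and 3, and its short form skips both. This Ψ is therefore not the share of transcripts that hold the intron.

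HNRNPA3 encodes a protein of the same A/B family that binds hnRNP A2 response elements. Its 141-nt exon 8 moved the other way, with Ψ of 0.963, 0.958, and 0.957 in DMSO at 4 days, 0.985, 0.971, and 0.975 with GSK591, and 0.993, 0.981, and 0.992 with co-treatment on that day. Both inhibitor groups lay above DMSO and overlapped each other, and ΔΨ was 0.0177 (adjusted p = 0.0209) and 0.0293 (adjusted p = 5.57e-05). It was called in the same 5 comparisons as the HNRNPA1 exon, with ΔΨ from 0.0149 to 0.0293, and not with MS023 (ΔΨ from 0.00525 to 0.0142). Yet the MS023 libraries at 4 days, at 0.973, 0.970, and 0.978, also lay above all DMSO libraries. The direct differences between GSK591 and MS023 were not called on any day for this exon. With the prior taken from events with reads of both forms, the calls with GSK591 at 2 and 4 days were lost (adjusted p = 0.19 and 0.0979). The 147-nt exon 3, whose counterparts in HNRNPA1 and HNRNPA2B1 are 79.6% and 70.1% identical, was called in 0 of 8 comparisons in HNRNPA3 and in HNRNPA1, and in 3 in HNRNPA2B1. Among the remaining named exons of HNRNPA3, the 123-nt exon 2 was called 3 times and the 90-nt exon 5 once, with ΔΨ from -0.0038 to -0.00117.

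The direct tests of 1 inhibitor group against another called few events. GSK591 against MS023 gave 7 of 117 hnRNP events at 2 days (2.18% of all events), 13 of 128 at 4 days (4.36%), and 9 of 118 at 7 days (2.62%). Co-treatment against GSK591 gave 5 of 136 at 4 days (0.252%) and 0 of 132 at 2 days (0.0515%). At 2 days, 23 hnRNP events had an unadjusted p under 0.05 in the quasi-binomial test, and limma called 0, with 15 at an unadjusted p under 0.05. In the direct comparisons the prior degrees of freedom for SE events, which set how far an event's own spread is pulled to that of all events, were 0.523 to 0.578, against 31.6 or more in the 8 comparisons with DMSO. At 7 days against DMSO they were infinite, so a single spread replaced that of each SE event. With the prior from events with reads of both forms they were 137 or more in every fit, and infinite in most. When the prior was taken only from events with reads of both forms, the tests called 25, 28, and 27 hnRNP events for GSK591 against MS023, where 8.35%, 12.9%, and 10.5% of all events were called. For co-treatment against GSK591 they called 16 and 19, where 2.5% and 4.19% of all events were called. The counts of direct calls therefore rest on this choice. The sizes of the differences do not.

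**Figure D4:**
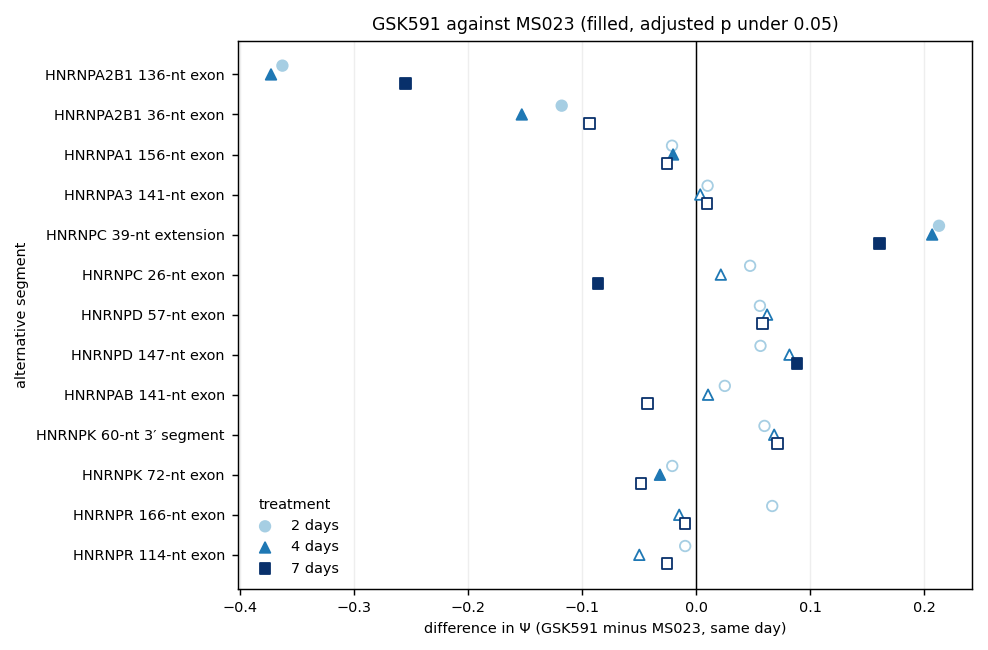
Difference in Ψ between GSK591 and MS023 on the same day (x axis) for 13 segments (y axis), at 2 days (circles), 4 days (triangles), and 7 days (squares), filled where the adjusted p was under 0.05. The HNRNPA2B1 136-nt exon (-0.363, -0.373, and -0.255) and the HNRNPC 39-nt extension (0.213, 0.207, and 0.161) were filled on all 3 days.

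DMSO at 7 days against DMSO at 4 days called 15 of 145 hnRNP events (3.06% of all events). All 15 were MXE events, 15 of the 38 tested, where 17.5% of all MXE events were called. Over all genes the test called 0 of 75006 SE, 0 of 6226 A3SS, and 0 of 4100 A5SS events. The prior degrees of freedom for SE events were 0.501. With the prior taken from events with reads of both forms 26 hnRNP events were called (5.04% of all events), among them the HNRNPA2B1 136-nt exon (-0.0817, adjusted p = 6.33e-05), the HNRNPAB 141-nt exon (-0.0669, adjusted p = 0.00119), and the HNRNPC 39-nt extension (0.0479, adjusted p = 2.03e-08). The interaction tests asked whether an inhibitor effect differed between 7 and 4 days. For GSK591 9 of 96 hnRNP events were called (1.83% of all events), 5 of them on the HNRNPA2B1 and HNRNPC segments described above. The other 4 were MXE events of HNRNPA1 and HNRNPC (-0.0478 and -0.102), an A3SS event of HNRNPC (0.0166), and an SE event of HNRNPA2B1 (-0.00655). For MS023 0 of 110 were called (0.0779%), where 18 had an unadjusted p under 0.05 in the quasi-binomial test and limma called 0, with 3 at an unadjusted p under 0.05.

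Of 19 other hnRNP genes and close relatives, 15 had tested events. In the 8 inhibitor comparisons between 4.17% and 25.6% of their events were called, with 38 higher and 38 lower in co-treatment at 4 days and 4 higher and 8 lower with MS023 at 2 days. Of 13 genes for the methyltransferases and the Sm proteins, 10 had tested events, and between 4.17% and 17.3% of these were called. Among the epithelial markers between 4.26% and 25.9% of tested events were called, and among the markers of other cells 0 of at most 2 events.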

How the data were processed

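Poly(A)-RNA of A549 cells was sequenced in 10 groups of 3 libraries. The authors trimmed reads with Trim Galore 0.6.5, aligned them to hg19 with STAR 2.4.2a, and counted events with rMATS 4.0.2, as far as their processing notes and methods tell. The deposited values used here are counts of reads that include or skip a segment, on junctions and exon bodies, per library. The deposited p-values, FDRs, inclusion levels, and differences were not used, and 0 columns of other per-sample values were left out. Nascent-RNA and transcription-inhibited libraries were not analysed here. Sequences are shown for 9 segments, and those of the other described segments are not reported here.

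Events with at least 10 reads in every library were fitted with a quasi-binomial logistic model in R 4.3.3. The dispersion was moderated per event type with squeezeVar of limma 3.58.1 and held at 1 or above, and p-values from the F test were adjusted by Benjamini-Hochberg within type and comparison over all genes. The step was also run on simulated counts, and the outcome is not reported here. The 2- and 4-day groups used DMSO at 4 days and the 7-day groups DMSO at 7 days, the latter inferred from the labels, so comparisons share controls. Up to 3 segments per gene with the most calls were named, plus its most read in-frame coding exon. Exon numbers follow the MANE transcript in GENCODE lifted to GRCh37. The members and lists (other hnRNP genes, methyltransferase and Sm genes, epithelial markers, markers of other cells) were chosen with earlier results of these data known.

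Alternatives were limma on log2 odds with 0.5 added to each count, minimums of 20 and 1 reads, adjustment over all types, a threshold of 0.01, no length correction, dispersion not held at 1, and leaving out each library. A trended prior, a prior from events with at least 20 summed reads of the rarer form, events listed in all 8 tables, and no MXE events were added after seeing the data.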

Additional observations from a re-analysis of the deposited data

Results flagged for a closer look

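The effect of GSK591 differed between 7 and 4 days in the interaction test for 5 named segments, each against the DMSO libraries of its own day. For the HNRNPA2B1 136-nt exon the effect was 0.131 higher at 7 days, where mean Ψ with GSK591 was 0.250 against 0.296 in DMSO, compared with 0.200 against 0.378 at 4 days. For the HNRNPA2B1 36-nt exon it was 0.0878 higher, with 0.320 against 0.228 at 7 days and 0.237 against 0.232 at 4 days. For the HNRNPC 39-nt extension the difference was -0.0794, with 0.570 against 0.458 at 7 days and 0.601 against 0.411 at 4 days. For the HNRNPC 26-nt exon it was -0.102, with 0.652 against 0.821 at 7 days and 0.760 against 0.826 at 4 days. For the overlapping HNRNPC 272-nt form, which shares reads with it, it was -0.0527, with 0.146 against 0.258 and 0.216 against 0.275. In the 136-nt exon and the 39-nt extension both the inhibitor and the DMSO means moved between days. limma called 0 hnRNP events in this test (0.0179% of all events), with 10 at an unadjusted p under 0.05.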

How the results depend on the processing

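None of the 139 called differences of named segments changed sign when 1 library was left out or the length correction was dropped. The other alternatives change the test or the events tested and not the difference, so they could not change a sign. Of 303 that were not called, 76 took both signs as 1 library at a time was left out. Without MXE events the called hnRNP events with MS023 at 7 days turned from mostly lower to 10 higher and 7 lower. No paired analysis was possible because the columns carry no replicate numbers. In the order GSK591, MS023, and co-treatment at 2 days, the same at 4 days, and GSK591 and MS023 at 7 days, limma called 0, 0, 8, 4, 0, 7, 0, and 0 hnRNP events, with 15, 9, 10, 22, and 24 at an unadjusted p under 0.05 where it called 0. Of all events limma called 0.565%, 0.0289%, 4.15%, 2.5%, 0.021%, 5.77%, 0.987%, and 0.0249%. It called 1 and 4 for GSK591 against MS023 at 2 and 7 days (2.05% and 5.8% of all events). For co-treatment against GSK591 at 4 days it called 0 (18 unadjusted, 0.0396% of all events), and for the GSK591 interaction 0 (0.0179%). At an adjusted p under 0.01 the counts were 11 for GSK591 at 2 days, 2, 5, and 3 for GSK591 against MS023, and 1 for co-treatment against GSK591 at 4 days. The trended prior gave 13 for GSK591 at 2 days (5.4% of all events) and 3 for co-treatment against GSK591 at 4 days (0.656%). Events listed in all 8 tables gave 13 and 22 for GSK591 and co-treatment at 2 days, 24 and 25 at 4 days, 1 for co-treatment against GSK591 at 2 days, and 9 between the DMSO days, with fewer events tested. For co-treatment against GSK591, a dispersion not held at 1 gave 3 calls at 2 days, and adjustment over all types or a minimum of 1 read gave 3 at 4 days. Without MXE events 0 calls were left between the DMSO days, 4 and 8 for GSK591 against MS023 at 2 and 4 days, and 1 for co-treatment against GSK591 at 4 days. The prior from events with reads of both forms gave 14, 12, 34, 29, 14, 37, 25, and 21 calls against DMSO. Of all events it called 4.81%, 1.62%, 9.65%, 8.27%, 2.07%, 11.2%, 5.94%, and 2.84%. It gave 25, 28, and 27 for GSK591 against MS023 (8.35%, 12.9%, and 10.5% of all events). For co-treatment against GSK591 it gave 16 and 19 (2.5% and 4.19%). Between the DMSO days it gave 26 (5.04%), and for the GSK591 and MS023 interactions 8 and 0 (1.6% and 0.0955%).

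Leaving out 1 library gave 1 to 3, 0 to 0, 5 to 11, 6 to 9, 0 to 0, 6 to 13, 1 to 4, and 0 to 3 calls against DMSO, in the same order. It gave 2 to 4, 5 to 9, and 3 to 5 for GSK591 against MS023, 0 to 0 and 0 to 1 for co-treatment against GSK591, 10 to 13 between the DMSO days, and 6 to 10 and 0 to 1 for the interactions. In these fits the prior degrees of freedom for SE events fell as low as 0.453. With the prior from events with reads of both forms they were 137 or more, so the spread of each SE event had little or no part in the ranges that follow. With the prior from events with reads of both forms the ranges were 10 to 14, 10 to 11, 27 to 31, 25 to 29, 12 to 14, 32 to 34, 19 to 23, and 16 to 23 against DMSO, then 18 to 25, 23 to 28, and 22 to 27, 8 to 12 and 13 to 20 (17 without co-treatment library c), 20 to 26, and 6 to 11 and 0 to 1. Of 139 called values of named segments, 126 stayed called with that prior, 117 with the trended prior, 108 at 0.01, and 11 with limma. The calls of the HNRNPA3 exons with GSK591, of the HNRNPD 57-nt exon with MS023 at 2 days, of the HNRNPR 114-nt exon with GSK591 at 2 days, and of the exons with Ψ near 1 were among those lost. With that prior and 1 library left out, 2 of 6 fits kept the calls of the HNRNPA2B1 136-nt exon and the HNRNPA3 141-nt exon with GSK591 at 7 days, 4 of 6 that of the HNRNPA2B1 36-nt exon with GSK591 at 2 days, and 5, 3, and 2 of 6 those of the HNRNPK 60-nt segment with MS023 at 2, 4, and 7 days. The cause was not tested.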
